A study of Mus musculus with 7 samples.

Results

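Wnt ligands are secreted, lipid-modified proteins that bind a Frizzled receptor together with the co-receptor Lrp5 or Lrp6, which stabilises beta-catenin and lets it act with TCF/LEF factors in the nucleus. Some ligands, Wnt5a and Wnt11 among them, also signal through Frizzled receptors without beta-catenin. R-spondins and their Lgr receptors keep Frizzled receptors at the cell surface, while Sfrp, Wif1, Dkk proteins and Notum hold the ligands or the co-receptors back. In skin the pathway is known for starting hair follicles, driving the hair cycle and maintaining stem cells. Here 50 genes of this system, taken by name from a list, were followed in bulk tumour RNA. They comprised 15 ligands, 10 Frizzled receptors, 2 co-receptors, 6 R-spondins and their receptors, 11 secreted antagonists, 4 TCF/LEF factors and 2 feedback targets. All 50 were found among the 55423 features counted, and 48 had at least 5 reads in at least 1 tumour and were tested.

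The tumours came from Ivl:BRAFV600E mice, in which tamoxifen-inducible Cre (Ivl-CreERT2, driven by the involucrin promoter) switches on the BRAFV600E oncogene in IVL+ cells of the epidermis, and from Ivl:BRAFV600E-SOX2LSL mice. The latter carry the same Cre and oncogene and in addition 1 Rosa26 allele that expresses SOX2 and eGFP in the recombined cells (Rosa26LSL-SOX2-IRES-eGFP). The paper's methods give a C57BL/6J background for the mice, while its reporting summary gives a mixed C57BL/6 background. All mice were treated with tamoxifen on the back skin (at 7 to 10 weeks of age per the labels) and were killed at the clinical endpoint. The paper describes lesions of the Ivl:BRAFV600E model on ears, lips and paws as well as the back, so the site of treatment need not be that of each tumour. The 3 Ivl:BRAFV600E tumours are called BRAF tumours 1 (female), 2 (female) and 3 (male), and the 3 Ivl:BRAFV600E-SOX2LSL tumours are called SOX2LSL tumours 1 (male), 2 (male) and 3 (female), in the order of the columns in the count table. BRAF tumours 1 and 2 came from mice that also carried a Rosa26LSL-tdRFP reporter allele. By the mouse list of the study, each SOX2LSL tumour was collected fewer days after induction than any BRAF tumour, so time since induction and genotype cannot be told apart. Whole tumours were sequenced, so a lower value can stand for fewer cells of a type or for less RNA per cell, which cannot be told apart here.

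Depth was similar, with 23565432 to 31152826 counts on genes per tumour. The introduced gene followed the labels. Sox2 lay between 0.238 and 0.716 CPM (counts relative to library size after TMM scaling) in the BRAF tumours and between 155 and 182 CPM in the SOX2LSL tumours. EGFP had 0 counts in each BRAF tumour and 3132 to 4957 counts in the SOX2LSL tumours. The keratinocyte genes Krt5, Krt14 and Trp63 were present in all 6 tumours with overlapping groups, and Trp63 lay between 261 and 321 CPM. SOX2LSL tumour 1 stood apart from the other 2 of its group in adipocyte genes, with a summed level of 45.8 CPM over 6 markers against 0.518 to 1.66 CPM in all other tumours, and in Krt10, with 425 CPM against 3994 and 7214 CPM.

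Wnt9a was the member with the smallest p. Wnt9a, a ligand known from joint formation, was measured at 3.0, 4.43 and 6.65 CPM in BRAF tumours 1 to 3, and at 79.1, 57.9 and 55.5 CPM in SOX2LSL tumours 1 to 3. All SOX2LSL tumours were far above all BRAF tumours, and the spread within each group was small beside the gap. The fitted fold was 13.7, a log2 fold change of 3.78 with a 95% interval of 3.02 to 4.53 (edgeR quasi-likelihood test, adjusted p = 0.00611). A further 3 members passed the same test, all of them higher in the SOX2LSL tumours: the ligands Wnt11 and Wnt16 and the receptor Fzd2.

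The promoters of the 3 ligands that rose, and that of Wnt3a, the ligand next to Wnt9a on the chromosome, are shown because these genes differ in response while 2 of them share a locus. The windows (RefSeq, GRCm38.p6) run from 250 bases before to 50 bases after the annotated start of transcription, 5′ to 3′ on the strand of the gene. Capitals mark a SOX core (ACAANG on either strand, read CNTTGT on the other) or a TCF/LEF core (CTTTGA on either strand, read TCAAAG on the other). The motifs cannot fill the same 6 bases, although they may overlap in part. The windows are chr11:59306680-59306979 on the plus strand for Wnt9a, chr11:59290702-59291001 on the minus strand for Wnt3a, chr7:98834862-98835161 on the plus strand for Wnt11 and chr6:22287977-22288276 on the plus strand for Wnt16.
Wnt9a: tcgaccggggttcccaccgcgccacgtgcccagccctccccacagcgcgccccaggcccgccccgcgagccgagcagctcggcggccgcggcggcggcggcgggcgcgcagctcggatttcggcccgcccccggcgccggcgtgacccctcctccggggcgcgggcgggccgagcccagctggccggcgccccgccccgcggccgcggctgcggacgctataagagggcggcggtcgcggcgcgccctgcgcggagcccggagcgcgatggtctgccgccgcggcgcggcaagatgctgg
Wnt3a: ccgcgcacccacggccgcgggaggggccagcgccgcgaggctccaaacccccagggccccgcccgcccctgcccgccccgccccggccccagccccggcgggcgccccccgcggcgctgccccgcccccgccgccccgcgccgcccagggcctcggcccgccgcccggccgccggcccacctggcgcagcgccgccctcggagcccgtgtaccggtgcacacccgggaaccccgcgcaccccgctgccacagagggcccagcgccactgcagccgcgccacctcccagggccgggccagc
Wnt11: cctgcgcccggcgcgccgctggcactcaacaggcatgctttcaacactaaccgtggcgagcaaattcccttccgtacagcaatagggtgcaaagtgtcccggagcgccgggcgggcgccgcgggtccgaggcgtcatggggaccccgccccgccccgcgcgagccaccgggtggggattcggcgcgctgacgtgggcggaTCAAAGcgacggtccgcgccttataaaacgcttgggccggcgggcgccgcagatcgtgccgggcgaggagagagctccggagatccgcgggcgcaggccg
Wnt16: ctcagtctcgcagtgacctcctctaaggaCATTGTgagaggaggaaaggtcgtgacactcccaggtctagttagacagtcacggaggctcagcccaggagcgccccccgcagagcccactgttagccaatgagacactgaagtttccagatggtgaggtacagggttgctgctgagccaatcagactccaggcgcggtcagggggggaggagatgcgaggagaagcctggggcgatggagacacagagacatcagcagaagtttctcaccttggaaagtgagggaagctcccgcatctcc

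The Wnt9a and Wnt3a windows held no match to either motif, that of Wnt11 held 1 TCF/LEF core and that of Wnt16 held 1 SOX core. A second listed start of Wnt11 (chr7:98838595-98838894, plus strand) held neither. Windows were listed for 33 of the 50 members, 41 windows in all, of which 15 (36.6%) held a SOX core and 6 (14.6%) a TCF/LEF core. Among all 32851 windows the shares were 41.2% and 16.0%, so the members' windows held these letters about as often as windows in general. The Wnt9a and Wnt3a windows were rich in G and C, at 83.3% and 86.3%, against 71.3% for Wnt11 and 58.0% for Wnt16.

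**Figure D1:**
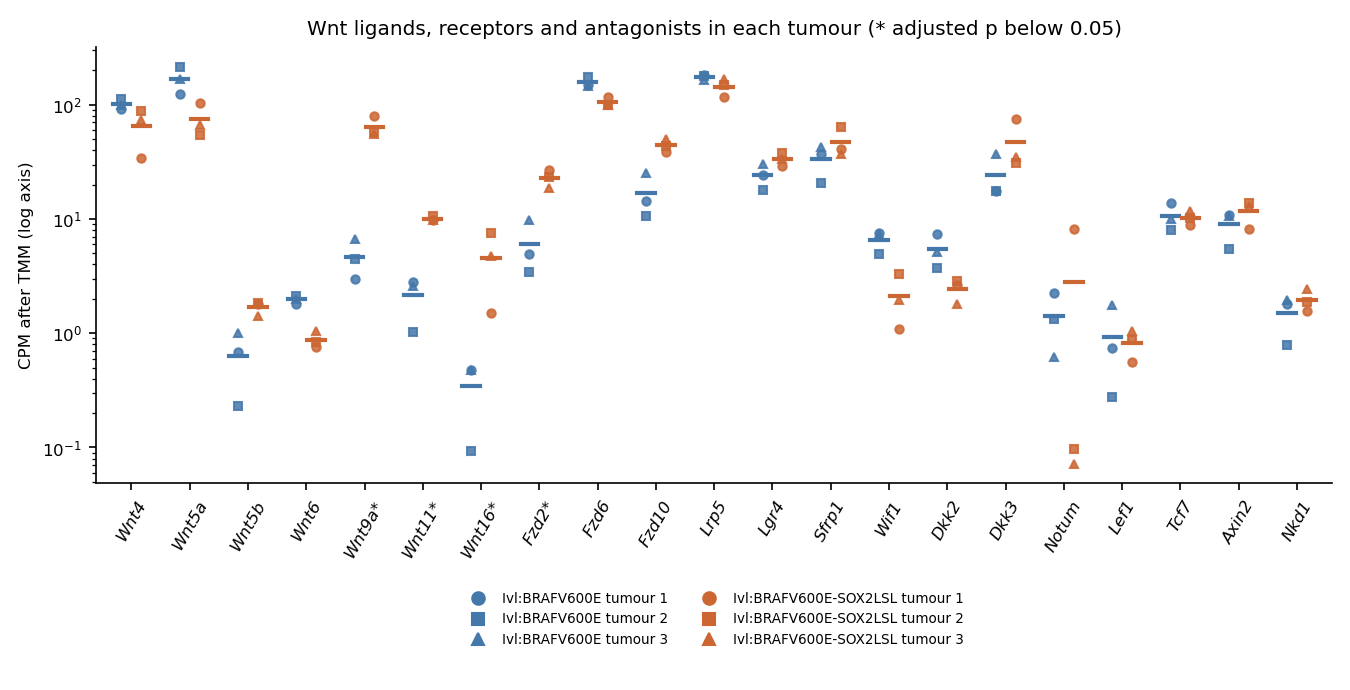
Level of 21 members in each tumour as CPM after TMM scaling, on a log axis. Each point is 1 tumour, its shape gives the tumour number within the genotype, horizontal lines are means of 3, and an asterisk marks an edgeR adjusted p below 0.05. Wnt9a lies between 3.0 and 6.65 CPM in the BRAF tumours and between 55.5 and 79.1 CPM in the SOX2LSL tumours.

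Of the 48 members tested, 4 (8.33%) passed an adjusted p of 0.05 with higher values in the SOX2LSL tumours and 0 with lower values. Over all 24433 genes tested, 2.39% passed with higher and 1.51% with lower values. Without adjustment, p lay below 0.05 for 10 members (20.8%) with higher and for 5 (10.4%) with lower values in the SOX2LSL tumours, beside 14.5% and 11.2% of all genes. With other tools the numbers were larger. DESeq2 called 7 members higher and 5 lower, beside 10.5% and 7.76% of the 20046 genes to which it gave an adjusted p. The calls of limma were 5 members higher and 4 lower, beside 4.80% and 3.97% of all genes. The groups did not overlap for 9 members (18.8%) that were higher and 8 (16.7%) that were lower in the SOX2LSL tumours. These shares were close to the 18.2% and 16.0% over all genes, so that the count of members without overlap is not in itself a result about them. The median log2 fold change was 0.37 over the members and 0.04 over all genes.

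**Figure D2:**
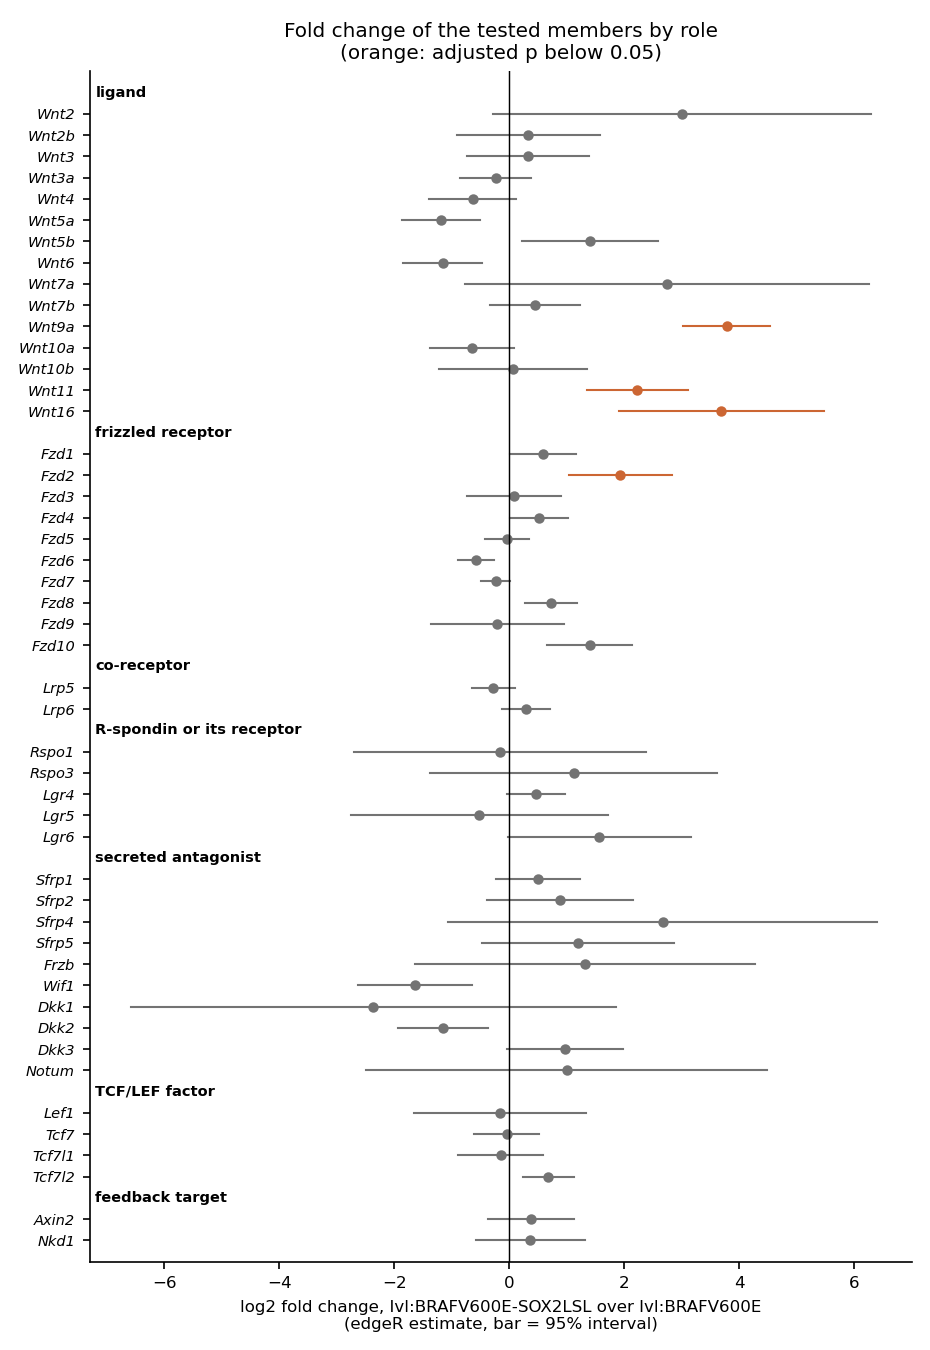
Log2 fold change of the 48 tested members, Ivl:BRAFV600E-SOX2LSL over Ivl:BRAFV600E, grouped by role. Points are edgeR estimates, bars are 95% intervals, and the 4 members with an adjusted p below 0.05 (Wnt9a, Wnt11, Wnt16 and Fzd2) are drawn in orange, all to the right of 0.

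The ligands held 3 of the 4 calls. Beside Wnt9a, Wnt11 and Wnt16 rose, and no ligand passed the test with lower values. Wnt9a lies on GRCm38 at chr11:59306928-59333552, plus strand. It was the only member called under each of the 14 alternatives, which included other tools, scalings and filters, sex as a covariate and each tumour left out. Its log2 fold change stayed between 3.53 and 4.11 there, with adjusted p between 2.45e-26 (DESeq2) and 0.0484 (edgeR without BRAF tumour 2).

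Wnt11, a ligand of cell movements in the embryo and of kidney branching, was measured at 2.80, 1.02 and 2.61 CPM in BRAF tumours 1 to 3 and at 9.79, 10.6 and 9.79 CPM in SOX2LSL tumours 1 to 3. The SOX2LSL tumours lay close together and above each BRAF tumour. The fold was 4.67 (log2 fold change 2.22, SE 0.37, edgeR adjusted p = 0.0291). Without BRAF tumour 1 the adjusted p was 0.119, without BRAF tumour 3 it was 0.0719, without SOX2LSL tumours 2 or 3 it was 0.0722 or 0.0622, and with sex as a covariate it was 0.0748, with log2 fold changes of 1.89 to 2.47 over all alternatives. Of the exons of Wnt11 (chr7:98835112-98855195, plus strand), 8.80% are overlapped by the pseudogene Gm8398 on the opposite strand, and whether counting used the strand is not stated for these libraries.

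Wnt16, a ligand known as a regulator of cortical bone, was a low gene that rose from 0.477, 0.0924 and 0.475 CPM in BRAF tumours 1 to 3 to 1.51, 7.51 and 4.77 CPM in SOX2LSL tumours 1 to 3. These values stood for 14, 2 and 10 reads against 54, 232 and 132 reads. The groups did not overlap, but the SOX2LSL tumours differed widely from each other, with tumour 1 lowest. The fold was 12.9 with a wide interval (log2 fold change 3.69, 95% interval 1.91 to 5.46, edgeR adjusted p = 0.0467). Leaving out a tumour other than SOX2LSL tumour 1 ended the call, with adjusted p of 0.167, 0.124 and 0.104 without BRAF tumours 1, 2 and 3 and of 0.0938 and 0.0849 without SOX2LSL tumours 2 and 3. Without SOX2LSL tumour 1 the adjusted p was 0.0114, and with sex as a covariate it was 0.107.

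Wnt5a, Wnt6 and Wnt5b did not overlap between the genotypes, differed by a log2 fold change of at least 1 and did not pass the test. Wnt5a, the prototype of signalling without beta-catenin, was measured at 125, 215 and 168 CPM in BRAF tumours 1 to 3 and at 103, 54.2 and 66.2 CPM in SOX2LSL tumours 1 to 3. The highest SOX2LSL tumour came near the lowest BRAF tumour. Its log2 fold change was -1.18 (95% interval -1.86 to -0.50, edgeR adjusted p = 0.0662). Wnt5a passed with lower values with DESeq2 (adjusted p = 0.00365), with limma (0.0205), with upper-quartile scaling (0.0498), without the filter on low counts (0.0329) and in edgeR without SOX2LSL tumour 1 (0.0175). Over all alternatives its adjusted p lay between 0.00365 and 0.183.

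Wnt6 was measured at 1.81, 2.12 and 2.00 CPM in the BRAF tumours and at 0.755, 0.842 and 1.05 CPM in the SOX2LSL tumours. Both groups were tight, and the log2 fold change was -1.16 (SE 0.29, edgeR adjusted p = 0.0707). Wnt6 passed with DESeq2 (0.0109) and limma (0.0479) and under no other alternative, over which its adjusted p reached 0.195. Wnt5b had 0.682, 0.231 and 0.998 CPM in the BRAF tumours and 1.82, 1.85 and 1.41 CPM in the SOX2LSL tumours. The groups lay apart, yet its log2 fold change of 1.40 (SE 0.50, edgeR adjusted p = 0.143) passed under none of the 14 alternatives.

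Wnt4, a ligand of kidney and female reproductive tract development, had the highest mean level per exon length in the BRAF tumours, although Wnt5a exceeded it in BRAF tumour 2 (32.9% against 32.2% of the ligand sum) and, per coding length, in all 3 BRAF tumours. It was measured at 91.8, 113 and 100.1 CPM there and at 34.1, 88.9 and 73.1 CPM in SOX2LSL tumours 1 to 3. The groups did not overlap, and SOX2LSL tumour 1 was the lowest. The log2 fold change was -0.64 (SE 0.32, edgeR adjusted p = 0.262). Wnt10a, whose human counterpart is known from ectodermal dysplasia, likewise did not overlap, with 37.5 to 51.0 CPM against 15.4 to 36.9 CPM and an adjusted p of 0.241.

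The other 7 ligands overlapped between the genotypes and did not pass. Wnt7b was the highest of them, at 11.2 to 14.3 CPM in the BRAF tumours and at 11.6, 13.0 and 27.2 CPM in the SOX2LSL tumours. Wnt3a lay between 3.14 and 5.79 CPM, Wnt3 between 1.62 and 4.59 CPM, Wnt2b between 1.36 and 5.20 CPM, Wnt10b between 0.389 and 1.29 CPM and Wnt2 at or below 0.392 CPM over the 6 tumours. Wnt7a was high in SOX2LSL tumour 1 alone, at 11.7 CPM against 0.144 to 1.11 CPM in the other 5 tumours.

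Levels of different genes can be compared per length, and CPM per kilobase of exon was used for this. In the BRAF tumours 3 ligands made up most of the summed ligand level of 72.9 ± 9.78 CPM per kilobase (SD, n = 3). Wnt4 took 33.3 ± 1.0% of it, Wnt5a 29.3 ± 4.13% and Wnt10a 24.3 ± 2.71%, and neighbours in this order differed by about their spread. Wnt9a took 1.94 ± 0.769%. In the SOX2LSL tumours the summed level was 68.6 ± 2.91 CPM per kilobase, a difference below the spread between BRAF tumours, and Wnt9a took 28.3 ± 6.98% of it.

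In these SOX2LSL tumours Wnt4 followed with 22.5 ± 9.30%, Wnt10a with 16.3 ± 6.02% and Wnt5a with 14.0 ± 5.35%, each within the spread of its neighbour in the order. Wnt9a led in SOX2LSL tumour 1, with 36.3% against 20.1% for Wnt5a and 12.4% for Wnt4, but in SOX2LSL tumours 2 and 3 its shares of 25.2% and 23.4% were below those of Wnt4, at 30.7% and 24.5%. Per coding length in place of exon length the order changed, as 1140 of the 7823 exonic bases of Wnt5a are coding. Wnt5a then led in the BRAF tumours with 47.3 ± 4.98%, and in the SOX2LSL tumours Wnt5a (25.8%), Wnt4 (24.6%) and Wnt9a (23%) lay close together. The summed level per coding length was 260, 363 and 306 CPM per kilobase in BRAF tumours 1 to 3 and 254, 247 and 257 CPM per kilobase in SOX2LSL tumours 1 to 3, lower in each SOX2LSL tumour, which it was not per exon length.

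**Figure D3:**
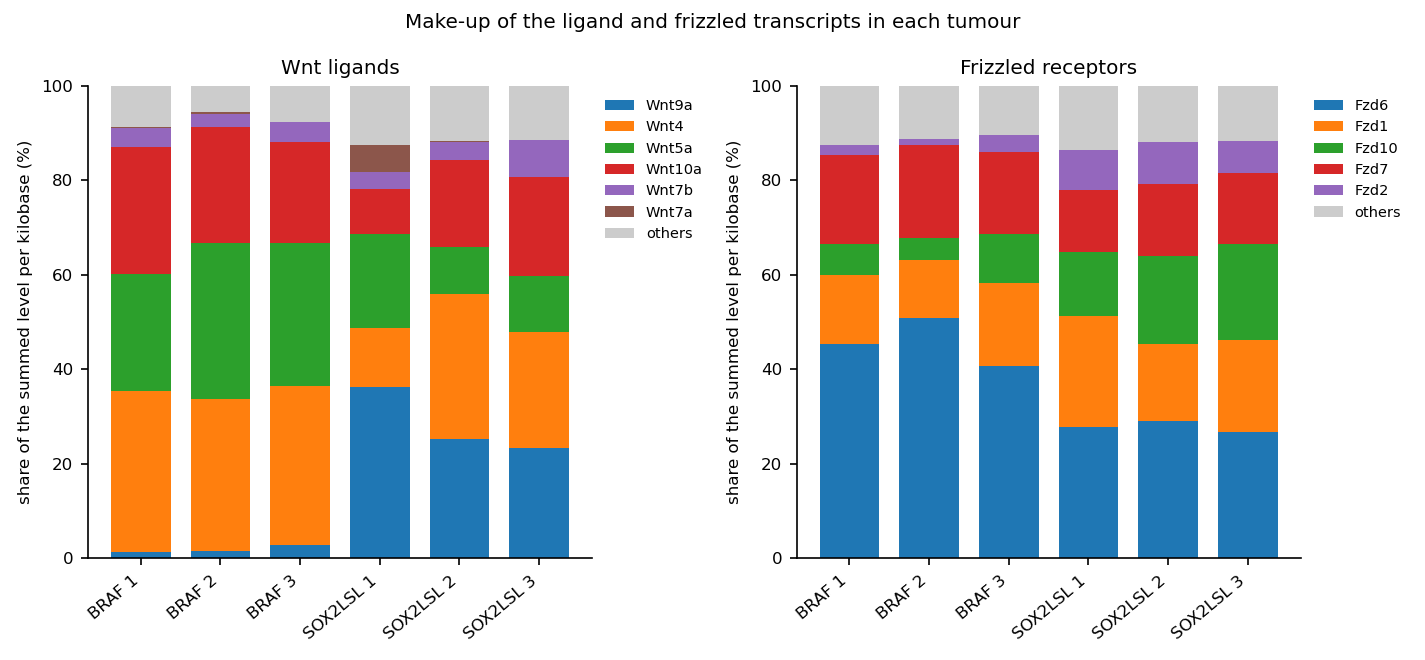
Share of each ligand (left) and each Frizzled receptor (right) in the summed CPM per kilobase of exon of its class, in percent, 1 bar per tumour; genes that reach 5% in no tumour are pooled as others. Wnt9a takes 1.40% to 2.82% of the ligand sum in the BRAF tumours and 23.4% to 36.3% in the SOX2LSL tumours, and Fzd6 takes 40.8% to 50.9% and 26.7% to 29.0% of the Frizzled sum.

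Among the 10 Frizzled receptors, 1 rose and none fell by the edgeR test. Fzd2 (chr11:102604396-102608058, plus strand), a receptor through which Wnt5a can signal, was measured at 4.95, 3.42 and 9.74 CPM in BRAF tumours 1 to 3 and at 26.6, 23.3 and 18.8 CPM in SOX2LSL tumours 1 to 3. All SOX2LSL tumours exceeded all BRAF tumours, of which tumour 3 was the highest. The fold was 3.80 (log2 fold change 1.93, SE 0.38, edgeR adjusted p = 0.0434). The call held with the other tools, scalings, filters and the sex covariate and in edgeR without BRAF tumour 3 (0.0411) or SOX2LSL tumour 1 (0.0464). It was lost without BRAF tumours 1 (0.175) or 2 (0.102) and without SOX2LSL tumours 2 (0.0884) or 3 (0.0700).

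Fzd10 was measured at 14.4, 10.7 and 25.3 CPM in BRAF tumours 1 to 3 and at 38.4, 43.6 and 50.3 CPM in SOX2LSL tumours 1 to 3. The groups did not overlap, and the fold of 2.63 just missed the threshold (log2 fold change 1.39, SE 0.31, edgeR adjusted p = 0.0561). Fzd10 passed with DESeq2 (0.00120), limma (0.0175), without the filter (0.0220) and in edgeR without BRAF tumour 3 (0.0423) or SOX2LSL tumour 1 (0.0464), and its adjusted p was at most 0.198 over the alternatives.

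Fzd6, a receptor known for orienting hair follicles, had the highest level per length of the class in both genotypes. It was measured at 148, 176 and 147 CPM in the BRAF tumours and at 116, 99.8 and 98.7 CPM in the SOX2LSL tumours. Every SOX2LSL tumour was lower, by a modest amount (log2 fold change -0.58, SE 0.13, edgeR adjusted p = 0.0593). Fzd6 passed with lower values with DESeq2 (0.00498), limma (0.0213), upper-quartile scaling (0.0380), filterByExpr (0.0461) and in edgeR without SOX2LSL tumour 1 (0.0256), with adjusted p up to 0.178 over the alternatives.

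Of the remaining 7 receptors, Fzd8 and Fzd4 were higher and Fzd7 lower in each SOX2LSL tumour than in each BRAF tumour, and none passed. Fzd8 lay between 6.14 and 8.70 CPM in the BRAF tumours and between 11.3 and 13.7 CPM in the SOX2LSL tumours (adjusted p = 0.0800, passed with DESeq2 only). Fzd4 lay between 13.5 and 14.9 CPM against 15.1 and 26.1 CPM, and Fzd7 between 58.0 and 64.0 CPM against 49.1 and 52.9 CPM. Fzd1, Fzd3, Fzd5 and Fzd9 overlapped, with Fzd1 between 36.6 and 86.1 CPM and Fzd9 at or below 0.618 CPM.

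Per length, the Frizzled sum was 71.3 ± 3.67 CPM per kilobase in the BRAF and 78.4 ± 7.89 CPM per kilobase in the SOX2LSL tumours (SD, n = 3). Fzd6 took 45.7 ± 5.10% of it in the BRAF tumours, followed by Fzd7 with 18.7 ± 1.20% and Fzd1 with 14.7 ± 2.68%. In the SOX2LSL tumours Fzd6 took 27.8 ± 1.18%, Fzd1 19.8 ± 3.66%, Fzd10 17.5 ± 3.44% and Fzd7 14.5 ± 1.24%, where Fzd1 and Fzd10, and Fzd10 and Fzd7, did not differ beyond their spread. Fzd10 had taken 7.19 ± 2.96% and Fzd2 2.29 ± 1.15% in the BRAF tumours, and Fzd2 took 7.98 ± 1.16% in the SOX2LSL tumours.

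Neither co-receptor passed the test. Lrp5 was measured at 182, 180 and 164 CPM in the BRAF tumours and at 116, 149 and 167 CPM in the SOX2LSL tumours, overlapping at the last (log2 fold change -0.28, 95% interval -0.65 to 0.10). Lrp6 lay between 99.8 and 129 CPM in the BRAF tumours and between 119 and 172 CPM in the SOX2LSL tumours (log2 fold change 0.30, 95% interval -0.12 to 0.71). Both intervals leave out a 2-fold change in either direction.

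Of the R-spondins, the ligands of the Lgr receptors, the 3 members were low. Rspo2 had 5 reads over the 6 tumours and was not tested, Rspo3 lay at or below 0.448 CPM and Rspo1 at or below 0.950 CPM. Rspo4, counted with the other pathway genes, was higher than these, at 1.64, 0.970 and 2.19 CPM in BRAF tumours 1 to 3 and at 1.37, 5.73 and 4.62 CPM in SOX2LSL tumours 1 to 3. SOX2LSL tumour 1 lay among the BRAF tumours (log2 fold change 1.29, 95% interval -0.02 to 2.60, edgeR adjusted p = 0.201). Lgr4, the most abundant of the receptors per length, was measured at 24.2, 18.1 and 30.4 CPM in BRAF tumours 1 to 3 and at 29.0, 37.7 and 33.3 CPM in SOX2LSL tumours 1 to 3. The groups overlapped slightly (log2 fold change 0.46, SE 0.21, edgeR adjusted p = 0.222). Lgr6 lay between 1.11 and 6.84 CPM against 5.02 and 13.3 CPM (adjusted p = 0.199). Lgr5, a marker of hair follicle stem cells, was at 2.29, 0.139 and 5.80 CPM in BRAF tumours 1 to 3 and between 1.20 and 2.64 CPM in the SOX2LSL tumours.

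Of the 10 secreted antagonists tested, none passed in edgeR, although 2 were lower without overlap. Wif1, which binds Wnt proteins outside the cell, was measured at 7.50, 4.94 and 7.36 CPM in BRAF tumours 1 to 3 and at 1.09, 3.30 and 1.95 CPM in SOX2LSL tumours 1 to 3. Each SOX2LSL tumour was lower than each BRAF tumour. The log2 fold change was -1.64 (SE 0.42, edgeR adjusted p = 0.0723), and Wif1 passed with DESeq2 (0.00291), limma (0.0376) and without the filter (0.0442), with adjusted p up to 0.221 over the alternatives.

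Dkk2, a Dickkopf protein that binds Lrp5 and Lrp6, was measured at 7.43, 3.70 and 5.13 CPM in BRAF tumours 1 to 3 and at 2.63, 2.88 and 1.81 CPM in SOX2LSL tumours 1 to 3. Each SOX2LSL tumour was lower than each BRAF tumour (log2 fold change -1.15, SE 0.33, edgeR adjusted p = 0.0945). Dkk2 passed with DESeq2 only (0.0161), and its adjusted p was at most 0.269.

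Among the secreted antagonists taken as members, Sfrp1, a soluble Frizzled-like protein, was the most abundant per length in the BRAF tumours. In the SOX2LSL tumours it was Dkk3, a divergent member of the Dickkopf family. Sostdc1 and Dkkl1, counted as inhibitors with the other pathway genes, had higher means per kilobase of exon than Sfrp1 and Dkk3 in the BRAF tumours. In the SOX2LSL tumours the mean of Dkk3 was above those of Sostdc1 and Dkkl1. Sfrp1 was measured at 37.0, 20.8 and 42.6 CPM in BRAF tumours 1 to 3 and at 41.2, 63.9 and 37.0 CPM in SOX2LSL tumours 1 to 3, with overlap (log2 fold change 0.50, edgeR adjusted p = 0.346). Dkk3 was measured at 17.8, 17.6 and 37.1 CPM in BRAF tumours 1 to 3 and at 75.3, 30.9 and 35.1 CPM in SOX2LSL tumours 1 to 3. BRAF tumour 3 lay above SOX2LSL tumours 2 and 3 (log2 fold change 0.97, edgeR adjusted p = 0.211). The order of Sfrp1 and Dkk3 was not firm: in the BRAF tumours their means of 7.66 and 7.19 CPM per kilobase of exon lay within the spread, and in the SOX2LSL tumours Dkk3 led in tumours 1 (22.4 against 9.42) and 3 (10.5 against 8.46) but not in tumour 2 (9.19 against 14.6). Per coding length Sfrp1 had the larger mean share of the antagonist sum in the SOX2LSL tumours as well, 40.1 ± 8.08% against 36.0 ± 15.4% for Dkk3.

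Several antagonists were set by 1 tumour. Sfrp4 was at 20.5 CPM in SOX2LSL tumour 2 against at most 2.47 CPM in the other 5 tumours, and Frzb was at 2.97 CPM in SOX2LSL tumour 1 against at most 0.784 CPM elsewhere. Sfrp2 lay between 3.46 and 23 CPM with overlap, and Sfrp5 at or below 0.583 CPM. Dkk1 had 6 reads in BRAF tumour 1 and at most 1 in any other tumour, and Dkk4 had 5 reads in all and was not tested.

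Notum, an enzyme that removes the lipid from Wnt proteins and a feedback target of the pathway, was measured at 2.25, 1.34 and 0.618 CPM in BRAF tumours 1 to 3 and at 8.25, 0.0972 and 0.0722 CPM in SOX2LSL tumours 1 to 3. SOX2LSL tumour 1 had 295 reads of Notum while SOX2LSL tumours 2 and 3 had 3 and 2 reads. With all tumours the log2 fold change was 1.0 (95% interval -2.49 to 4.49, edgeR adjusted p = 0.707). Without SOX2LSL tumour 1 it was -3.98 (adjusted p = 0.0283), while the adjusted p under the other alternatives lay between 0.120 and 0.966. The antisense gene Notumos overlaps 29.4% of the exon length of Notum, and reads of the 2 genes cannot be told apart if the strand was not used.

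Neither feedback target inside the cell passed the test. Axin2, the feedback target most used as a readout of beta-catenin signalling, was measured at 10.9, 5.45 and 10.6 CPM in BRAF tumours 1 to 3 and at 8.25, 13.7 and 13.0 CPM in SOX2LSL tumours 1 to 3. SOX2LSL tumour 1 lay below BRAF tumours 1 and 3, and the groups overlapped (log2 fold change 0.38, 95% interval -0.38 to 1.13, edgeR adjusted p = 0.494). Nkd1, which binds Dishevelled, was at 1.81, 0.785 and 1.95 CPM in BRAF tumours 1 to 3 and at 1.57, 1.88 and 2.42 CPM in SOX2LSL tumours 1 to 3. It overlapped as well (log2 fold change 0.36, 95% interval -0.59 to 1.31). Both intervals include 0 and a 2-fold rise, so that these data allow both.

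Among the TCF/LEF factors, Lef1 was low and variable, at 0.750, 0.277 and 1.76 CPM in BRAF tumours 1 to 3 and at 0.560, 0.875 and 1.05 CPM in SOX2LSL tumours 1 to 3. Its groups overlapped fully (log2 fold change -0.16, 95% interval -1.67 to 1.34). The antisense gene Gm43352 overlaps 13.7% of the exon length of Lef1, and whether counting used the strand is not stated. Tcf7 had the highest mean level per exon length, although Tcf7l1 exceeded it in BRAF tumour 2 (3.30 against 3.06 CPM per kilobase) and in SOX2LSL tumour 1 (4.21 against 3.35), and per coding length the mean of Tcf7l2 was level with it in the SOX2LSL tumours. Tcf7 was at 13.8, 8.04 and 9.93 CPM in BRAF tumours 1 to 3 and at 8.78, 10.3 and 11.7 CPM in SOX2LSL tumours 1 to 3. The groups again overlapped (log2 fold change -0.05, 95% interval -0.61 to 0.51). Tcf7l2 was higher in each SOX2LSL tumour, at 18.0 to 28.8 CPM against 14.4 to 15.1 CPM, and did not pass in edgeR (log2 fold change 0.68, adjusted p = 0.0903) but did with DESeq2, while Tcf7l1 overlapped.

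**Figure D4:**
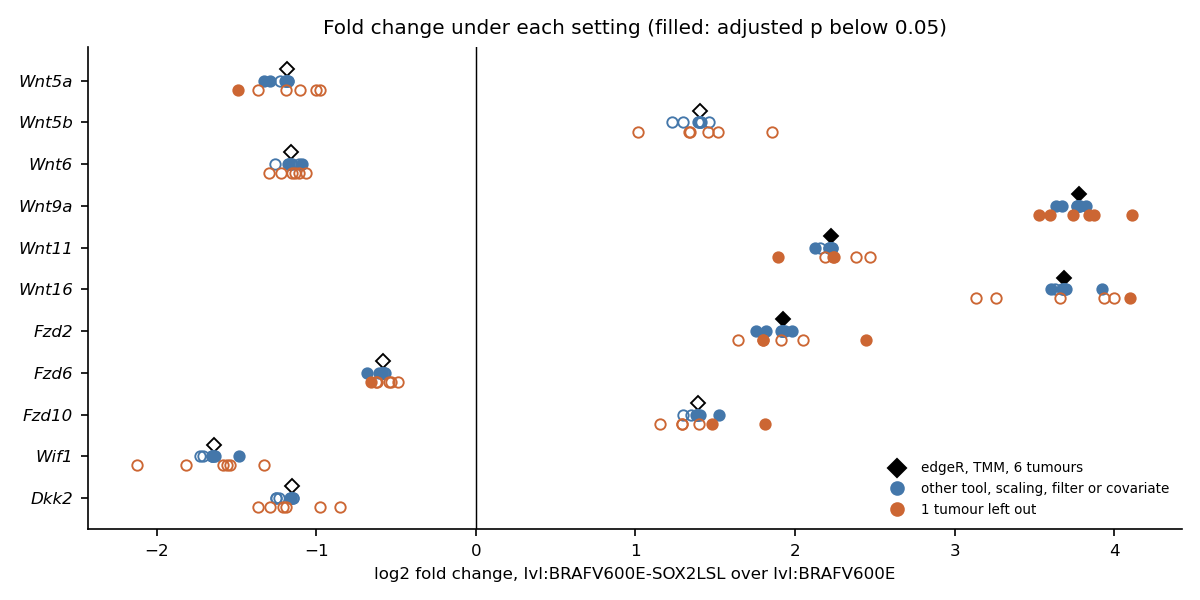
Log2 fold change of 11 members under the main edgeR fit (black diamonds), under other tools, scalings, filters or a sex covariate (blue) and with 1 tumour left out (orange); filled symbols have an adjusted p below 0.05. Wnt9a is filled in each case, between 3.53 and 4.11, while Wnt11, Wnt16 and Fzd2 keep their direction and lose the call when certain tumours are left out.

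Beyond the members, 61 other genes of the pathway were counted by function, of which 57 were tested. In edgeR 2 of them rose and 2 fell, 3.51% each beside 2.39% and 1.51% of all genes. Gpc3, a glypican of the cell surface that binds Wnt proteins, rose from 1.84, 1.66 and 1.81 CPM in BRAF tumours 1 to 3 to 6.38, 8.62 and 15.9 CPM in SOX2LSL tumours 1 to 3. The groups lay well apart (log2 fold change 2.53, SE 0.37, adjusted p = 0.0241). Amer1, a scaffold of the beta-catenin destruction complex, rose from 14.6, 13.8 and 15.3 CPM to 31.3, 25.5 and 23.8 CPM (log2 fold change 0.88, adjusted p = 0.0322).

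Znrf3, the ubiquitin ligase that clears Frizzled receptors from the membrane, fell from 51.2, 55.2 and 59.3 CPM to 37.9, 38.2 and 38.0 CPM. Both groups were tight (log2 fold change -0.54, adjusted p = 0.0491). Csnk1e, a kinase that acts on Dishevelled, fell from 86.0, 69.2 and 55.1 CPM to 35, 41.1 and 37.8 CPM (log2 fold change -0.88, adjusted p = 0.0459). Without BRAF tumours 1, 2 or 3 or SOX2LSL tumour 2 none of these 4 passed: the adjusted p of Gpc3 was 0.123, 0.0902, 0.0687 and 0.0537 in that order, that of Amer1 0.148, 0.116, 0.0774 and 0.0733, that of Znrf3 0.158, 0.148, 0.113 and 0.105 and that of Csnk1e 0.161, 0.133, 0.0604 and 0.0870. Without SOX2LSL tumour 3 only Gpc3 passed (0.0290), with 0.0533 for Amer1, 0.0992 for Znrf3 and 0.0952 for Csnk1e, and with sex as a covariate only Gpc3 passed as well (0.0306). Znrf3 also missed the threshold without the filter on low counts (0.0553) and without the 10 features with the most counts (0.0501).

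By function, neither gene of ligand processing passed, though Porcn, which attaches the lipid, and Wls, which carries ligands to the surface, were both higher in each SOX2LSL tumour (Wls at 67.9 to 151 CPM against 44.1 to 54.1 CPM, adjusted p = 0.124). Of 8 other receptors, 1 rose (Gpc3). Of 10 other inhibitors tested, 1 fell (Znrf3). Of 15 genes of Dishevelled and the destruction complex, 1 rose (Amer1) and 1 fell (Csnk1e). None of the 11 genes of beta-catenin and its nuclear partners and none of the 9 planar cell polarity genes passed, and Ctnnb1, which encodes beta-catenin, was at 378 to 429 CPM against 470 to 617 CPM (log2 fold change 0.36, adjusted p = 0.210). Sp5, a known target of beta-catenin in that list, had 0, 0 and 1 reads in BRAF tumours 1 to 3 and 1, 26 and 20 reads in SOX2LSL tumours 1 to 3. SOX2LSL tumours 2 and 3 stood above the rest, and Sp5 did not pass (adjusted p = 0.111).

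Markers of several cell types moved with genotype beside these results. All 14 skeletal muscle markers were higher in each SOX2LSL tumour and 12 passed the test. Their summed level was 5.22, 5.03 and 16.0 CPM in BRAF tumours 1 to 3, where 5 of the 14 had at most 3 counts in any tumour, and 2922, 3124 and 741 CPM in SOX2LSL tumours 1 to 3. SOX2LSL tumour 3, which had the least muscle RNA of its group, had 55.5 CPM of Wnt9a, 9.79 CPM of Wnt11, 4.77 CPM of Wnt16 and 18.8 CPM of Fzd2, against 57.9, 10.6, 7.51 and 23.3 CPM in SOX2LSL tumour 2 and 79.1, 9.79, 1.51 and 26.6 CPM in SOX2LSL tumour 1. The part of muscle RNA in the Wnt results was not tested.

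The summed level of the 10 keratinocyte markers was 80953 to 119026 CPM in the BRAF tumours and 13022 to 44068 CPM in the SOX2LSL tumours, with most of it from Krt1, Krt10 and Krt14. Within the list 3 genes were lower and 3 higher in each SOX2LSL tumour. Lower were Krt1, Krt10 and Lor, which mark differentiated layers (adjusted p of 0.149, 0.0935 and 0.0648). Higher were the adhesion molecule Epcam, which rose 12.8-fold (adjusted p = 0.0309), and Dsg3 and Cdh1, which did not pass (adjusted p of 0.121 and 0.175). Of 11 hair follicle markers, Hoxc13 fell (adjusted p = 0.0175). Foxn1 (27.9 to 45.0 against 7.55 to 27.1 CPM) and Msx2 (3.79 to 4.34 against 1.55 to 3.30 CPM) were also lower in each SOX2LSL tumour and did not pass. The rest of the list overlapped. The summed level was 170, 62.6 and 305 CPM in BRAF tumours 1 to 3 and 13.3, 56.3 and 143 CPM in SOX2LSL tumours 1 to 3. The part of hair follicle and differentiated cells in the Wnt results was not tested.

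Of 9 fibroblast markers none passed, and their sum of 835 to 5285 CPM in the BRAF tumours overlapped that of 4190 to 8731 CPM in the SOX2LSL tumours. Pdgfra (18.1 to 46.3 against 55.1 to 116 CPM, adjusted p = 0.0956) and Fbn1 (74.4 to 195 against 226 to 438 CPM, adjusted p = 0.128) were higher in each SOX2LSL tumour, and the other 7 overlapped. Of 7 leukocyte markers tested, Ptprc and Csf1r rose. Higher in each SOX2LSL tumour were 5 (Ptprc, Cd68, Csf1r, Adgre1 and Itgam), as were 18.2% of all genes tested. The sums of the list overlapped, and S100a8, which overlapped itself, was the largest part of them in each tumour. It lay between 175 and 635 CPM in the BRAF tumours and between 168 and 971 CPM in the SOX2LSL tumours. Of 5 dermal papilla markers none passed, with sums of 291 to 377 CPM against 131 to 224 CPM. Most of each sum was Trps1, at 277 to 360 CPM against 70.6 to 207 CPM. Trps1 and Alx4 were lower in each SOX2LSL tumour. Crabp1 was higher in each (9.34 to 13.5 against 15.8 to 59.0 CPM), and Corin and Hhip overlapped. None of the endothelial, pericyte, adipocyte, melanocyte and Schwann cell markers passed, at most 3 of a list did not overlap, and the sums of these lists overlapped between the groups. The part of these cells in the Wnt results was likewise not tested.

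**Figure D5:**
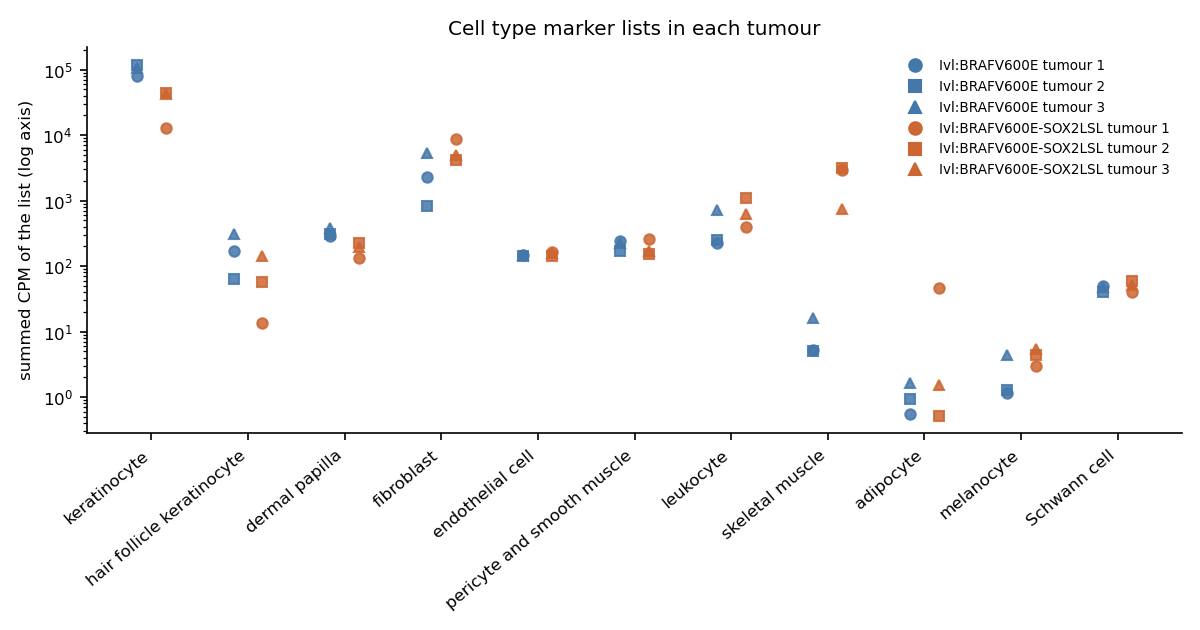
Summed CPM of each cell type marker list in each tumour, on a log axis; shapes give the tumour number within the genotype. The skeletal muscle sum lies between 5.03 and 16.0 CPM in the BRAF tumours and between 741 and 3124 CPM in the SOX2LSL tumours, the keratinocyte sum, most of it Krt1, Krt10 and Krt14, is lower in each SOX2LSL tumour, and the adipocyte sum is high in SOX2LSL tumour 1 only.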

How the data were processed

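RNA of whole tumours was sequenced with ribosomal RNA depleted first. Reads were checked with FastQC 0.11.8, trimmed with Trim Galore, aligned to GRCm38 with HISAT2 2.1.0 and counted per gene with featureCounts (Subread 1.6.3) by the authors, who deposited raw counts. Strandedness and the treatment of multimapping reads are not given in the sources used here. Of the 7 columns of the table, each 1 mouse, 6 were assigned to genotypes from the mouse list of the study, and 1 that matched no listed mouse was not used. The labels list 4 Ivl:BRAFV600E and 3 Ivl:BRAFV600E-SOX2LSL tumours.

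A gene entered the test if any tumour had 5 or more reads (24433 genes). Libraries were scaled by TMM, and edgeR 4.0.16 (R 4.3.3, quasi-likelihood F-test) compared the genotypes, with p-values adjusted over all genes after Benjamini and Hochberg and a threshold of 0.05. CPM is after TMM, and exon lengths, coding lengths and positions come from GENCODE M21. SE is the log2 fold change divided by the root of F. Values in each tumour are given for members that passed, that did not overlap with a log2 fold change of at least 1 in size or that led their role per length, and for Axin2, Nkd1, Notum and Lef1. Other members are given by ranges. The members and lists were chosen with earlier results of these data known. The scripts were tested on simulated counts. The alternatives were DESeq2 1.42.0, limma 3.58.1 (voom with sample weights), other scalings and filters, sex as a covariate and each tumour left out. Figures were drawn with matplotlib 3.10.9.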

Additional observations from a re-analysis of the deposited data

How the results depend on the processing

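No paired analysis was possible because the columns carry no replicate number. Over all genes 954 passed with edgeR, 3653 with DESeq2, 2142 with limma, 1759 without the filter on low counts, 228 with sex as a covariate and 22 to 1575 with 1 tumour left out (22 without BRAF tumour 1, 50 without BRAF tumour 2, 179 without BRAF tumour 3, 1575 without SOX2LSL tumour 1, 202 without SOX2LSL tumour 2, 412 without SOX2LSL tumour 3). Of the members, 4 were called higher, against 7 with DESeq2, 2 with the sex covariate and 1 to 5 with 1 tumour left out. Called lower were 0, against 5 with DESeq2, 4 with limma, 2 with upper-quartile scaling, 2 without the filter, 1 with filterByExpr and 0 to 3 with 1 tumour left out. Of the other pathway genes 4 passed, against 14 with DESeq2, 8 with limma, 7 without the filter, 1 with the sex covariate and 0 to 11 with 1 tumour left out. The share of Wnt5a in the ligands of the BRAF tumours moved from 29.3% to 47.3% per coding length. The log2 fold change of Notum was -3.05 with limma, -0.32 with the sex covariate and -3.98 (without SOX2LSL tumour 1) to 1.57 with 1 tumour left out. That of Lef1 was 0.22 with limma and -0.59 to 0.66 with 1 tumour left out, and that of Tcf7 was 0.019 with the sex covariate and -0.21 to 0.19 with 1 tumour left out. Of 350 values of single genes under alternatives, 281 kept their direction and side of the threshold, 39 lost and 21 gained a call and 9 turned. Upper-quartile scaling moved the median log2 fold change, taken over every gene, from 0.04 to -0.06. The causes were not tested. The number of tumours, 3 per group, limits most statements, and depth those on low genes such as Wnt16, Rspo1 and Dkk1.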

Other observations

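Wnt9a and Wnt3a lie next to each other on chromosome 11, 16.2 kb apart and with no other feature starting between them, on opposite strands. Wnt3a was at 5.42, 5.17 and 5.23 CPM in BRAF tumours 1 to 3 and at 5.79, 3.14 and 4.48 CPM in SOX2LSL tumours 1 to 3 (log2 fold change -0.24, 95% interval -0.86 to 0.38, edgeR adjusted p = 0.604), an interval that lies wholly below that of Wnt9a. Within 100 kb of Wnt9a, 5 other features were tested and none passed. Snap47, a SNARE protein, was closest to the threshold, at 17.5, 19.0 and 18.4 CPM in the BRAF tumours and at 41.8, 29.8 and 26.9 CPM in the SOX2LSL tumours (log2 fold change 0.84, adjusted p = 0.0558). Arf1 was at 341 to 399 CPM and at 335 to 344 CPM.

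Around the other members that rose, no neighbour within 100 kb passed either. Fam3c, 8.0 kb from Wnt16, was at 7.47, 7.02 and 9.22 CPM in BRAF tumours 1 to 3 and at 23.9, 13.5 and 13.7 CPM in SOX2LSL tumours 1 to 3 (log2 fold change 1.11, edgeR adjusted p = 0.0648). Uvrag, 29.8 kb from Wnt11, and Gpatch8, 48.0 kb from Fzd2, had log2 fold changes of 0.15 and 0.10. Wnt6 and Wnt10a, 6.19 kb apart on chromosome 1 with 1 other feature starting between them, were both lower in each SOX2LSL tumour, and neither passed in edgeR (adjusted p of 0.0707 and 0.241).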
